A study of Sus scrofa with 6 samples.

Results

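Cholesterol is built from acetyl-CoA through mevalonate, isoprenoid diphosphates, squalene and lanosterol, and the last steps strip methyl groups from lanosterol and move its double bonds. The enzymes of this route are known targets of SREBP2, a membrane-bound transcription factor. SCAP carries it out of the endoplasmic reticulum when sterol is scarce, and INSIG proteins hold the complex back when sterol is plentiful. Fat stores much of the body's free cholesterol, which fat cells take up from lipoproteins as well as make, and ABC transporters pass it on to high-density lipoprotein.

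Described here are genes of cholesterol synthesis, of SREBP2 control, and of sterol storage, lysosomal exit and efflux. They were chosen by symbol from a list of 30, and 29 of them have a row among the 22844 rows of each library table. These are 19 synthesis enzymes, 5 control genes and 5 genes of storage, lysosomal exit and efflux. PMVK, the kinase of phosphomevalonate, has no row under the identifier paired with its symbol and was not analysed here. The list holds no lipoprotein receptor of the cell surface, so uptake is touched on only through the lysosomal proteins NPC1 and NPC2 and a list of neighbouring genes. Other genes of the pathway outside these lists were not analysed here.

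RNA was sequenced from fat taken under the skin of hybrid pigs (Duroc × Landrace × Yorkshire). The resveratrol group is 3 libraries from pigs whose feed held 400 mg/kg of resveratrol, a polyphenol of plants. The control group is 3 libraries from pigs given the control feed. The labels give no age, sex or duration of feeding, and do not say whether each library is a separate animal, so p-values measure the spread between libraries, which may be technical. The comparison asked whether the diet changed the abundance of these transcripts.

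Library totals ran from 34436239 to 37943877 reads in resveratrol and from 16251536 (control 2) to 34048559 reads in control. All 29 genes passed the filter of a mean of at least 0.5 TPM (a transcript level scaled for length and for the library total), with 25 reads (STARD4) to 13957 reads (LSS) per library. The tissue label fits its markers: 11 of 12 adipocyte genes have a row and together held 23123 to 28756 TPM in resveratrol and 19309 to 26059 TPM in control. Control 1 stood apart in its markers. It held 11976 TPM of fibroblast and progenitor markers, against 5290 to 7533 TPM in the resveratrol libraries and 5795 and 6624 TPM in the other control libraries. The collagen genes COL1A1 and COL1A2 were the largest parts of that sum in control 1, at 3536 and 4241 TPM. The other markers of the list did not move together: LUM and DPT were lowest in control 1, and DCN, PDGFRB, PI16 and CD34 were highest there. Control 1 also held 121 TPM of tendon and cartilage markers, against 5.56 to 9.94 TPM in resveratrol and 13.4 and 32.2 TPM in the other control libraries. Every control library thus lay above every resveratrol library in that sum. Markers of skeletal muscle summed to at most 0.843 TPM in resveratrol and 1.40 TPM in control, with 3 of 8 genes having a row and TNNT3 at 0 in some libraries. Those of skin epithelium summed to at most 8.22 and 10.2 TPM. Less RNA per cell and fewer cells of a type cannot be told apart in such bulk tissue.

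No gene of the list passed the adjusted threshold of 0.05 in edgeR's quasi-likelihood test, where adjusted p ran from 0.733 to 0.997, and none of all 14908 rows did (0% of rows). DESeq2 on the same counts called 0 of the 29 and 40 of all rows. At an unadjusted p under 0.05 there were 2 members higher in resveratrol and 0 lower, where 2.21% of all rows were higher and 4.32% lower at that level. The 2 are NSDHL and HSD17B7, enzymes that act one after the other in the removal of the C4 methyl groups of sterols. Over the 29 genes the median log2 fold change of resveratrol over control was 0.07, with 17 above 0 and 12 below, beside a median of -0.0075 over all rows tested, of which 48.8% were above 0. In TPM, groups did not overlap for 2 genes higher in resveratrol (NSDHL and NPC2) and 1 lower (ABCG1), beside 4.11% and 8.15% of all rows.

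**Figure D1:**
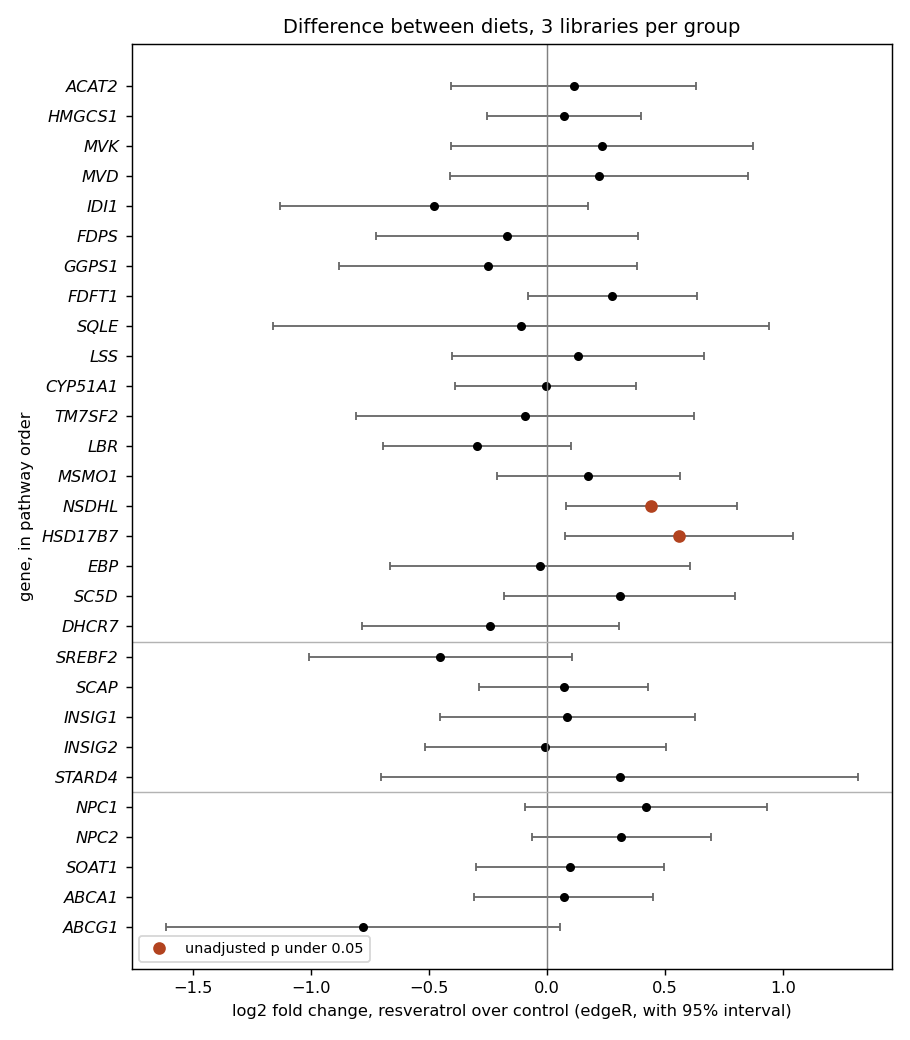
Log2 fold change of resveratrol over control for each gene (horizontal axis; edgeR, points with 95% interval), with genes down the page in pathway order and lines between synthesis enzymes, SREBP2 control genes and genes of storage, exit and efflux. Intervals lie above 0 for NSDHL (0.08 to 0.80) and HSD17B7 (0.08 to 1.04) and span 0 for the other 27 genes, all before adjustment over all rows.

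The levels of the genes spanned a wide range. NPC2 (ENSSSCG00000002366.3), the soluble protein that takes cholesterol from lysosomal lipoproteins, was the most abundant, at 391, 350.3 and 362 TPM in resveratrol 1, 2 and 3, against 312, 302 and 315 TPM in control 1, 2 and 3. Next came LSS, which closes squalene epoxide into lanosterol, at a mean of 91.3 ± 15.1 TPM in resveratrol and 88.9 ± 20.7 TPM in control (SD, n = 3 each). FDFT1, INSIG1 and EBP followed at means over all 6 libraries of 60.7, 53.8 and 53.3 TPM, and their ranges over libraries overlapped. At the low end stood ABCG1, STARD4, TM7SF2 and MVK, with means over all libraries of 1.03, 1.76, 2.29 and 2.69 TPM, and SQLE with 3.42 TPM. The monooxygenase SQLE, a rate-limiting step of the sterol branch, was thus listed far below LSS, the enzyme that uses its product, in all 6 libraries.

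**Figure D2:**
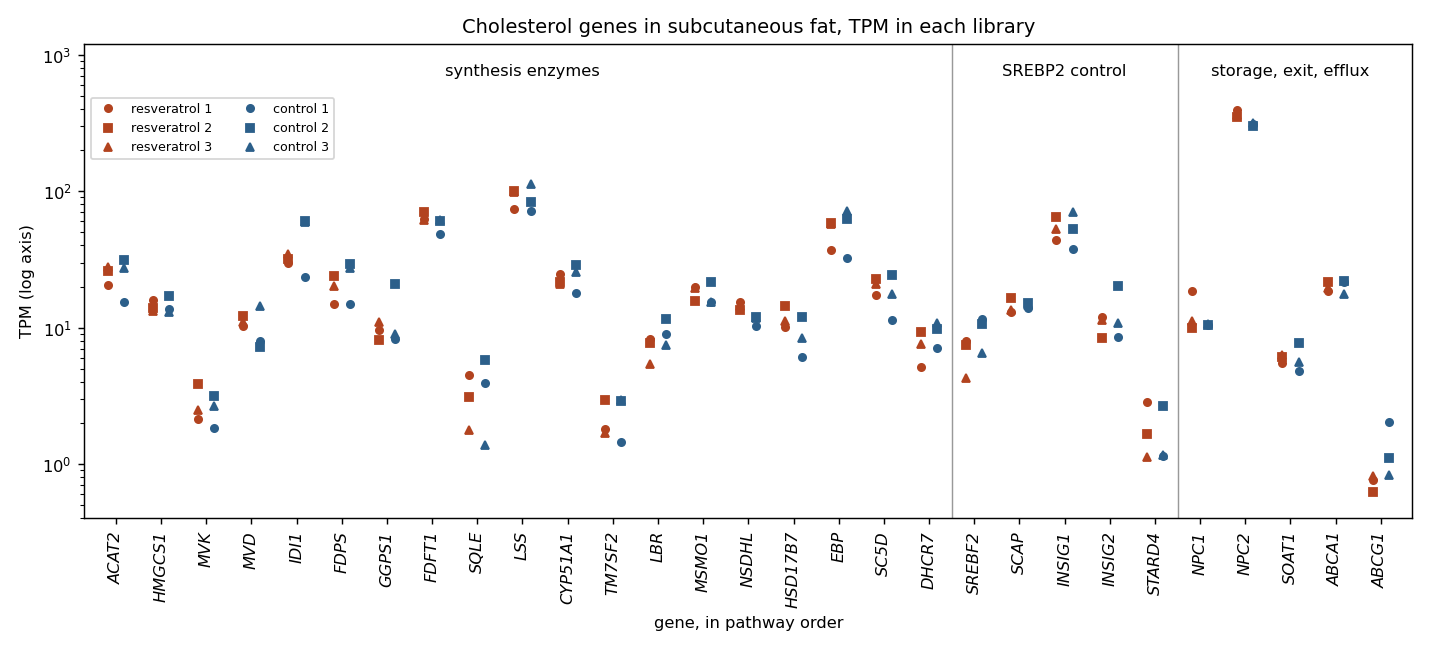
TPM of each gene (vertical log axis) in the 3 resveratrol libraries (red, left of each pair) and the 3 control libraries (blue), with genes in pathway order. NPC2 sits at or above 302 TPM in every library and ABCG1 at or below 2.03 TPM, and within most genes the symbols of the diets overlap.

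Among the mevalonate and isoprenoid steps, 4 of 7 genes measured had a log2 fold change above 0 and 3 below, with a median of 0.07 and none at an unadjusted p under 0.05. HMGCS1, which makes HMG-CoA, varied least of all 29 genes, with a range of 0.25 in log2 CPM (read counts scaled by library size and TMM) over the 6 libraries, against a median range of 0.92 over the members and 0.75 over all rows. It averaged 14.3 ± 1.42 TPM in resveratrol and 14.6 ± 2.17 TPM in control, with a log2 fold change of 0.07 (95% interval -0.25 to 0.40). ACAT2, the cytosolic thiolase of the first step, averaged 24.8 ± 3.67 and 24.8 ± 8.31 TPM. On the RefSeq assembly Sscrofa11.1 it overlaps TCP1, and without stated strand handling reads of the overlap cannot be assigned.

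IDI1, the isomerase of isopentenyl diphosphate, measured 29.6, 31.9 and 34.5 TPM in resveratrol 1, 2 and 3, against 23.7, 61.0 and 59.5 TPM in control 1, 2 and 3. The resveratrol libraries lay close together, and control 1 lay below all of them while the other 2 control libraries lay well above. The log2 fold change of IDI1 was -0.48 (SE 0.29, unadjusted p = 0.133 in edgeR), and it was -0.78 (unadjusted p = 0.00186) without control 1 and -0.21 without control 3. The kinase MVK averaged 2.82 ± 0.904 TPM in resveratrol and 2.56 ± 0.679 TPM in control, and the decarboxylase MVD 11.1 ± 0.916 and 9.91 ± 3.97 TPM. MVD had a log2 fold change of 0.22, which was 0.66 (unadjusted p = 0.0103) without control 3 and -0.02 without control 2.

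Farnesyl diphosphate, made by FDPS, is drawn on by FDFT1 for squalene and by GGPS1 for the geranylgeranyl groups of proteins. FDPS averaged 19.7 ± 4.49 TPM in resveratrol and 23.8 ± 7.86 TPM in control. FDFT1 measured 63.1, 70.0 and 61.5 TPM in resveratrol 1, 2 and 3, against 48.2, 60.1 and 61.5 TPM in control 1, 2 and 3, and the groups met at their edge. GGPS1 measured 9.67, 8.18 and 10.9 TPM in resveratrol, against 8.29, 20.8 and 8.95 TPM in control, with control 2 alone high. The ratio of FDFT1 to GGPS1 was 6.52, 8.56 and 5.63 in resveratrol and 5.82, 2.89 and 6.87 in control. The mean log2 ratio differed by 0.48 (resveratrol minus control, exact two-sided permutation p = 0.5, adjusted p = 0.875 over 5 ratios), and by 0.10 without control 2. With 3 libraries against 3, the smallest p this test can give is 0.1.

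In the squalene steps SQLE was the most variable gene of the list, with a range of 1.79 in log2 CPM. It measured 4.53, 3.10 and 1.79 TPM in resveratrol 1, 2 and 3, against 3.93, 5.79 and 1.37 TPM in control 1, 2 and 3. Each diet held libraries at both ends, and the interval of its log2 fold change ran from -1.16 to 0.94. LSS measured 73.9, 101 and 99.0 TPM in resveratrol and 71.9, 82.8 and 112 TPM in control. Its libraries did not order as those of SQLE did: control 3 was the highest for LSS and the lowest for SQLE.

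The first change to lanosterol is the loss of its C14 methyl group by CYP51A1, a cytochrome P450, followed by a reduction that either TM7SF2 or LBR can carry out. All 3 genes had log2 fold changes below 0, from -0.30 (LBR) to -0.01 (CYP51A1), and none had an unadjusted p under 0.05. The sign for CYP51A1 turned with the scaling, to 0.06 with library totals alone. CYP51A1 averaged 22.4 ± 1.91 TPM in resveratrol and 24.1 ± 5.54 TPM in control. LBR, which also anchors chromatin at the nuclear lamina, measured 8.22, 7.74 and 5.43 TPM in resveratrol, against 8.98, 11.7 and 7.52 TPM in control. TM7SF2 measured 1.80, 2.94 and 1.70 TPM in resveratrol, against 1.46, 2.89 and 2.97 TPM in control. The transcript of LBR was thus the more abundant of the reductase pair in all 6 libraries. TM7SF2 stood at 0.219, 0.380 and 0.313 of the TPM of LBR in resveratrol and at 0.163, 0.248 and 0.395 in control. The log2 ratio did not differ beyond its spread (difference 0.24, exact two-sided permutation p = 0.7, adjusted p = 0.875).

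The C4 methyl groups are removed by MSMO1, which oxidises them, NSDHL, which releases them as carbon dioxide, and HSD17B7, which reduces the ketone left behind. All 3 had log2 fold changes above 0, with a median of 0.44, and both genes of the list with an unadjusted p under 0.05 fall here. This grouping was made with the values known. NSDHL (ENSSSCG00000012758.4) measured 15.5, 13.5 and 14.4 TPM in resveratrol 1, 2 and 3, against 10.2, 11.9 and 11.7 TPM in control 1, 2 and 3. Every resveratrol library lay above every control library, on the TPM scale and in log2 CPM. NSDHL had a log2 fold change of 0.44 (SE 0.16, 95% interval 0.08 to 0.80, unadjusted p = 0.0214 and adjusted p = 0.733 in edgeR), a fold of 1.36.

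HSD17B7 (ENSSSCG00000006337.3) measured 10.2, 14.5 and 11.2 TPM in resveratrol 1, 2 and 3, against 6.11, 11.9 and 8.46 TPM in control 1, 2 and 3. Control 2 lay between the resveratrol libraries in TPM, and just below all of them in log2 CPM. Its log2 fold change was 0.56 (SE 0.22, unadjusted p = 0.0273 and adjusted p = 0.733 in edgeR), a fold of 1.47. The unadjusted p of NSDHL went to 0.0761 without resveratrol 1, 0.0697 without resveratrol 3 and 0.0573 without control 1. That of HSD17B7 went to 0.121 without resveratrol 2, 0.0570 without resveratrol 3 and 0.101 without control 1. On log2(TPM + 0.5) in limma neither gene reached an unadjusted p of 0.05. MSMO1 measured 19.9, 15.6 and 19.6 TPM in resveratrol and 15.5, 21.5 and 15.5 TPM in control, with overlapping groups and a log2 fold change of 0.17 (SE 0.17).

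**Figure D3:**
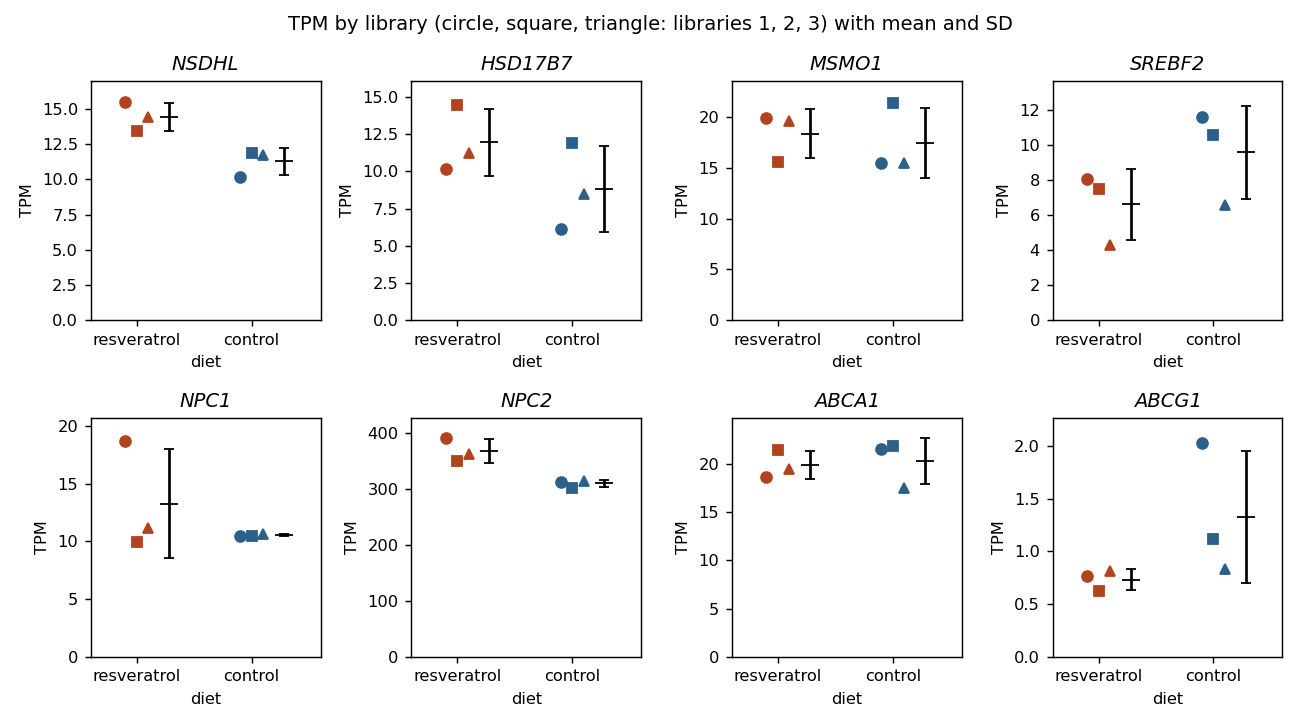
TPM of 8 genes (vertical axes from 0) in resveratrol libraries (red, left) and control libraries (blue, right), with mean and SD of 3 libraries in black. NSDHL and NPC2 do not overlap between diets, NPC1 is high in resveratrol 1 alone, and ABCG1 is high in control 1.

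The last steps shift and reduce double bonds of the B ring. EBP, the sterol isomerase, measured 37.3, 58.0 and 57.8 TPM in resveratrol 1, 2 and 3, against 32.6, 62.8 and 71.0 TPM in control 1, 2 and 3, so that library 1 was the lowest within each diet. SC5D, the desaturase that follows, averaged 20.4 ± 2.80 TPM in resveratrol and 17.8 ± 6.42 TPM in control, with a log2 fold change of 0.31 (SE 0.22). DHCR7, which makes cholesterol from its last precursor on one arm of the route, averaged 7.35 ± 2.07 and 9.23 ± 1.97 TPM, with one of -0.24 (SE 0.24).

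The synthesis enzymes as a group varied between libraries of the same diet. The median deviation of the 19 enzymes from their own mean was -0.10, 0.17 and 0.15 in log2 CPM in resveratrol 1, 2 and 3, against -0.29, 0.06 and 0.09 in control 1, 2 and 3. In control 1 only 2 of 19 enzymes (SQLE and LBR) lay above their mean, and in resveratrol 3 there were 16. Their summed level was 385, 460.0 and 442 TPM in resveratrol and 321, 504 and 499.9 TPM in control. The adipocyte markers summed to 23123, 25353 and 28756 TPM in resveratrol and to 19309, 25660 and 26059 TPM in control, so that control 1 and then resveratrol 1 were lowest in both sums. FABP4 was the largest part of the marker sum, at 14487, 16024 and 19979 TPM in resveratrol and 11828, 17601 and 17852 TPM in control. ADIPOQ, the next in level, was also lowest in control 1, but at 4437 TPM in resveratrol 1 it lay above every control library. The part of adipocyte, fibroblast and tendon content in these levels was not tested.

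**Figure D4:**
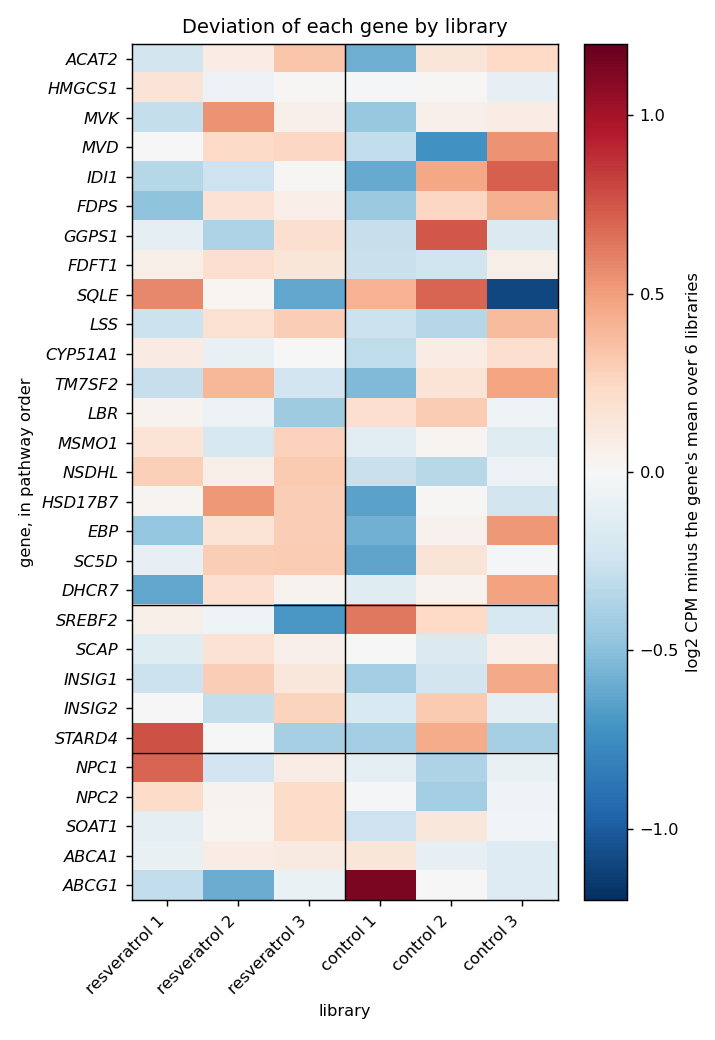
Log2 CPM of each gene minus its mean over the 6 libraries (colour), with resveratrol libraries left of control libraries and genes down the page in pathway order. Control 1 is below the mean (blue) for 17 of the 19 synthesis enzymes and above it (red) for SREBF2 and ABCG1.

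Among the genes that control the route, 3 of 5 had log2 fold changes above 0 and 2 below (INSIG2 turned to 0.04 with library totals alone), with a median of 0.07 and none at an unadjusted p under 0.05. SREBF2 (ENSSSCG00000026092.2), which encodes SREBP2, measured 8.03, 7.46 and 4.30 TPM in resveratrol 1, 2 and 3, against 11.6, 10.6 and 6.55 TPM in control 1, 2 and 3. The groups overlapped through control 3 alone. Its log2 fold change was -0.45 (SE 0.25, 95% interval -1.01 to 0.10, unadjusted p = 0.101 in edgeR). Without control 1 it was -0.22 and without resveratrol 3 it was -0.24, and without control 3 it was -0.64 (unadjusted p = 0.0260). SREBF1, the related gene of fatty acid synthesis and no member of the list, measured 9.29, 15.9 and 11.4 TPM in resveratrol and 13.9, 18.3 and 20.2 TPM in control. The ratio of SREBF2 to SREBF1 was 0.864, 0.469 and 0.379 in resveratrol and 0.835, 0.580 and 0.324 in control, with no difference beyond its spread (difference of log2 ratios -0.01, exact two-sided permutation p = 1).

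SCAP, the escort of SREBP2, averaged 14.3 ± 1.83 TPM in resveratrol and 14.6 ± 0.562 TPM in control, and its log2 fold change of 0.07 had an interval from -0.29 to 0.43. INSIG1 measured 43.9, 64.9 and 53.1 TPM in resveratrol 1, 2 and 3, against 37.8, 52.8 and 70.0 TPM in control 1, 2 and 3. INSIG2 measured 11.9, 8.43 and 11.3 TPM in resveratrol, against 8.58, 20.03 and 10.7 TPM in control, with control 2 alone high in TPM. In log2 CPM control 2 stood 0.32 above the mean of INSIG2 and resveratrol 3 stood 0.27 above it. The transcript length implied by its reads and TPM was lowest in control 2. RefSeq also lists an INSIG2 pseudogene on Sscrofa11.1, and how reads that match both were counted is not stated. The transcript of INSIG1, itself a target of SREBP2, was the more abundant of the retention pair in all 6 libraries. It stood at 3.68, 7.69 and 4.69 times the TPM of INSIG2 in resveratrol and 4.41, 2.63 and 6.53 times in control. That log2 ratio differed by 0.27 (exact two-sided permutation p = 0.6, adjusted p = 0.875), and by 0.13 when taken on read counts (exact permutation p = 0.7). STARD4, a soluble sterol carrier, had 25 to 74 reads per library and measured 2.83, 1.65 and 1.12 TPM in resveratrol and 1.15, 2.67 and 1.17 TPM in control. Its interval was the widest of the control genes, from -0.70 to 1.32.

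Of the genes of storage, lysosomal exit and efflux, 4 of 5 had log2 fold changes above 0 and ABCG1 lay below, with a median of 0.10. NPC2, whose values in each library are given above, had every resveratrol library above every control library. The edgeR log2 fold change was 0.31 (SE 0.17, unadjusted p = 0.0942 and adjusted p = 0.733 in edgeR). NPC1, the membrane protein that takes cholesterol from NPC2, measured 18.7, 9.98 and 11.2 TPM in resveratrol 1, 2 and 3, against 10.5, 10.5 and 10.6 TPM in control 1, 2 and 3. Resveratrol 1 alone was high and the other 5 libraries lay together. Its log2 fold change of 0.42 (SE 0.23, unadjusted p = 0.0976) was 0.13 without resveratrol 1. NPC1, SC5D and STARD4 each overlap 1 other gene on Sscrofa11.1, for SC5D and STARD4 a long noncoding RNA, and reads of the overlap cannot be assigned. LSS, IDI1 and CYP51A1 were not looked up for overlaps.

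Macrophages, which clear lipid in fat, are rich in the lysosomal pair. All 14 macrophage markers had log2 fold changes above 0, with a median of 0.47, where 48.8% of all rows were above 0. At an unadjusted p under 0.05 in edgeR 7 of these markers were higher, beside 2.21% of all rows, and 0 passed the adjusted threshold. Their summed level was 1218, 847 and 808 TPM in resveratrol 1, 2 and 3, against 761, 751 and 654 TPM in control 1, 2 and 3. That sum was highest in resveratrol 1, where NPC1 was also highest. Resveratrol 2 had the next highest sum and the lowest NPC1 of all libraries, at 9.98 TPM. Among the other marker lists, 10 of 11 tested adipocyte genes (median 0.19) and 4 of 4 T cell genes (median 0.46) were above 0. So were 5 of 10 fibroblast and progenitor, 2 of 5 endothelial, 1 of 2 skin epithelium and 0 of 6 tendon and cartilage genes. Whether the macrophage markers have a part in the levels of NPC1 and NPC2 was not tested.

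**Figure D5:**
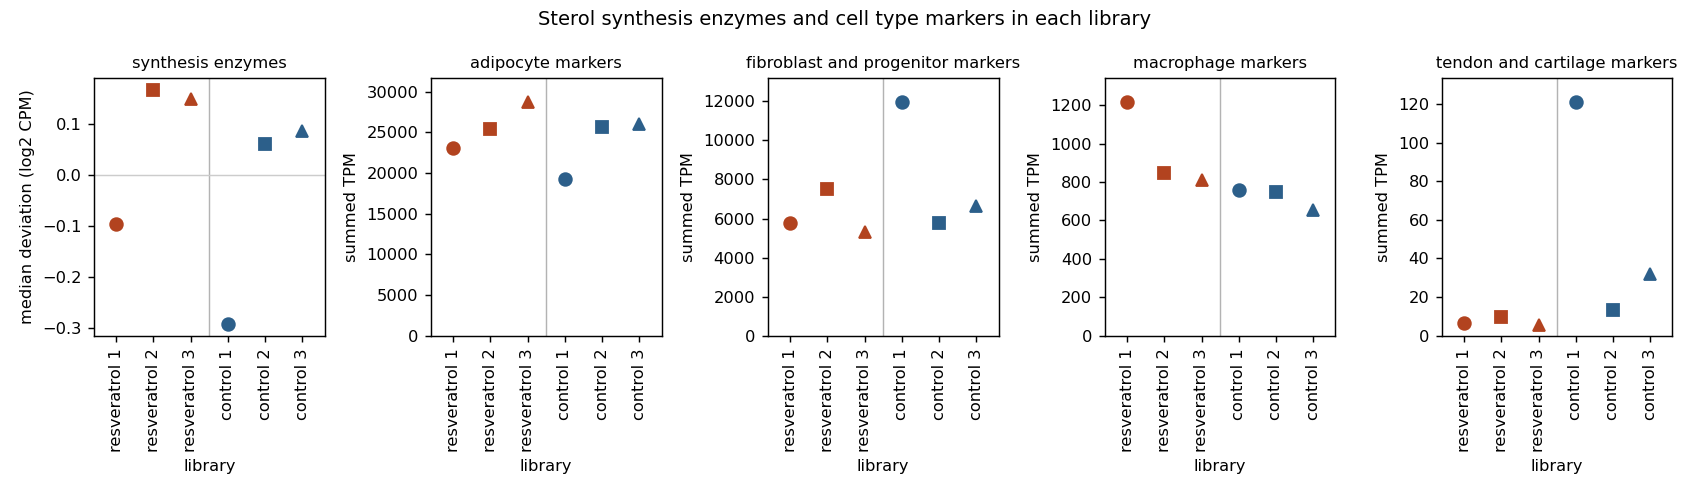
Median deviation of the 19 synthesis enzymes (left panel, log2 CPM) and summed TPM of marker lists (other panels) in each library, resveratrol (red) left of control (blue). Control 1 is the lowest for synthesis enzymes and adipocyte markers and the highest for tendon markers, and resveratrol 1 is the highest for macrophage markers. Control 1 is also the highest for the fibroblast sum, of which COL1A1 and COL1A2 are the largest parts there.

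SOAT1, which esterifies cholesterol for storage, averaged 5.96 ± 0.428 TPM in resveratrol and 6.04 ± 1.46 TPM in control, with a log2 fold change of 0.10 (95% interval -0.30 to 0.49). Of the efflux transporters, neither passed the test. ABCA1, which loads cholesterol onto apolipoprotein A-I, measured 18.7, 21.5 and 19.5 TPM in resveratrol, against 21.5, 21.8 and 17.5 TPM in control, with a log2 fold change of 0.07 (95% interval -0.31 to 0.45). ABCG1 (ENSSSCG00000027745.2), which exports cholesterol to mature high-density lipoprotein, measured 0.762, 0.622 and 0.811 TPM in resveratrol, against 2.03, 1.11 and 0.832 TPM in control.

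The ABCG1 groups did not overlap in TPM, by a narrow margin at control 3, and did overlap in log2 CPM. Its log2 fold change was the largest of the list in size, -0.78 (SE 0.37, 95% interval -1.61 to 0.05, unadjusted p = 0.0641 and adjusted p = 0.733 in edgeR), and a change of at least that size was met by 5.61% of all rows. Without control 1, the library high in COL1A1, COL1A2 and tendon markers, it was -0.24. ABCA1 had 24.5, 34.5 and 24.0 times the TPM of ABCG1 in resveratrol and 10.6, 19.6 and 21.0 times in control. Every resveratrol ratio lay above every control ratio, with a log2 difference of 0.74 (exact two-sided permutation p = 0.1, the smallest it can give, adjusted p = 0.5 over 5 ratios). Without control 1 the difference was 0.43.

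Both transporters are targets of the liver X receptors, which sense oxysterols. Of the list of liver X receptor and oxysterol genes, 12 of 15 were tested. At an unadjusted p under 0.05 in edgeR 1 was higher and 0 lower, beside 2.21% and 4.32% of all rows. That gene is NR1H3, the alpha receptor, at 55.3, 56.9 and 52.9 TPM in resveratrol 1, 2 and 3, against 45.2, 41.5 and 39.7 TPM in control 1, 2 and 3. Every resveratrol library lay above every control library, as in 4.11% of all rows. The log2 fold change of NR1H3 was 0.48 (SE 0.16, unadjusted p = 0.0134 and adjusted p = 0.733 in edgeR), and its unadjusted p stayed at or below 0.0407 in every alternative tried. Macrophages are known to express this receptor too, and the part of the higher macrophage markers given above was not tested. CYP7B1, an oxysterol hydroxylase, came next with -0.41 (SE 0.32). SMPDL3A and CYP27A1, an oxysterol-forming hydroxylase, were the most abundant of the list, at 75.0 ± 17.2 and 56.1 ± 37.0 TPM in resveratrol and 86.0 ± 24.1 and 59.0 ± 28.5 TPM in control.

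The other neighbouring lists held few genes past an unadjusted p of 0.05. In SREBP processing and degradation 0 of 13 tested genes did, 7 above 0 and 6 below, and the smallest p were those of SREBF1 (-0.42, SE 0.22) and RNF145 (-0.20, SE 0.15), a ubiquitin ligase. SAR1A, a GTPase of the vesicles that carry SCAP, was the most abundant at 176 ± 14.3 TPM in resveratrol and 166 ± 4.33 TPM in control. In the isoprenoid branch 1 of 12 was higher and 0 lower, beside 2.21% and 4.32% of all rows at that level. DOLK, the kinase of dolichol, measured 12.9, 13.1 and 12.6 TPM in resveratrol and 11.3, 8.07 and 9.55 TPM in control, without overlap, as 4.11% of all rows were. It had a log2 fold change of 0.48 (SE 0.20, unadjusted p = 0.0335 and adjusted p = 0.733 in edgeR). With 1 library left out its unadjusted p was 0.00894 without control 1 and was above 0.05 in the other 5 fits, reaching 0.0863 without resveratrol 3, and its log2 fold change was 0.30 without control 2.

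PDSS1, which makes the side chain of ubiquinone, stood at a log2 fold change of -0.36 (SE 0.23), and the methyltransferase ICMT and NUS1, a subunit of the dolichol-chain synthase, were the most abundant of the branch at 21.0 ± 1.87 and 18.1 ± 2.27 TPM in resveratrol and 22.1 ± 4.29 and 17.1 ± 0.975 TPM in control. In lipoprotein uptake and sterol transfer 18 of 20 genes had a row and 15 were tested, with CD36 and LRP1 not among them. Of the 15 tested genes 0 had an unadjusted p under 0.05, with 10 above 0 and 5 below. NCEH1, a cholesteryl ester hydrolase, had the smallest p, with a log2 fold change of 0.30 (SE 0.18). The most abundant of the tested genes were TSPO, a mitochondrial cholesterol-binding protein, and CAV1, the coat protein of caveolae. They stood at 1478 ± 161 and 574 ± 25.6 TPM in resveratrol and 1370.1 ± 428 and 632 ± 34.7 TPM in control.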

How the data were processed

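For each library the authors deposited, per the file headers, the reads counted on each gene (raw counts) and its TPM. A deposited series table repeats the TPM for 14777 rows. The submitters' processing notes name Bowtie 0.12.2 with builds mm8 and mm9 of the mouse, yet the identifiers are pig Ensembl genes. The sources used here name no pig annotation, counting program or strand setting, so no coordinates are printed. Symbols came from a table of Ensembl identifiers, which matched 14750 of 22844 rows.

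The 14908 rows averaging 0.5 TPM or more were fitted on counts with edgeR 4.0.16 (TMM scaling, robust quasi-likelihood test, Benjamini-Hochberg adjustment over all rows, threshold 0.05) in R 4.3.3. Levels are deposited TPM as mean ± SD of 3 libraries. TPM is not TMM-scaled: the median log2 fold change of all rows was -0.079 in limma on log2(TPM + 0.5), against -0.0075 in edgeR. Intervals are 95% intervals from the fit. Ratios of TPM were tested by exact permutation. Alternatives were DESeq2 1.42.0, limma 3.58.1 with pseudocounts of 0.5 and 1, other scalings and filters, a replicate block and each library left out. Both the fits and the ratio test were tested on simulated or fixed values.

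All members are named, with values by library for those at an unadjusted p under 0.05, those without overlap, the ratio pairs and the 6 most abundant; each neighbouring list is named by its 2 smallest p and 2 highest levels. A few genes this rule takes are not reported here. SQLE, MSMO1, STARD4 and NPC1, outside this rule, are given by library after their values were seen. Members, lists and this rule were chosen with earlier results of these data known.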

Additional observations from a re-analysis of the deposited data

How the results depend on the processing

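No gene of the list passed the adjusted threshold in any of 15 alternatives, and 13 of 29 kept the sign of their log2 fold change in all of them. The count higher at an unadjusted p under 0.05 was 0 in limma with either pseudocount and 0 to 4 with 1 library left out, against 2. The count lower was 1 in DESeq2 (ABCG1), 1 with the replicate block (SREBF2) and 0 to 2 with 1 library left out, against 0. In log2 CPM, an alternative chosen after seeing the data, 0 genes were lower without overlap, against 1 in TPM. The median of storage, exit and efflux genes was 0.0038 and 0.0022 in limma with pseudocounts of 0.5 and 1, and 0.044 to 0.19 with 1 library left out. The median of synthesis enzymes turned to -0.022 and -0.021 in limma, and was 0.022 to 0.16 with 1 library left out. For SREBP2 control genes the median turned to -0.032 and -0.030 in limma, and was -0.083 to 0.13 with 1 library left out. Signs turned in limma with pseudocounts of 0.5 and 1 for HMGCS1 (-0.022 and -0.021), SCAP (-0.032 and -0.030), ABCA1 (-0.024 and -0.024). They turned with library totals alone for CYP51A1 (0.058) and EBP (0.027) and INSIG2 (0.040). They turned with no filter for CYP51A1 (0.0085) and INSIG2 (0.010). They turned with the replicate block for CYP51A1 (0.0066) and EBP (0.0010). With 1 library left out, they turned within these ranges: ACAT2 -0.11 to 0.27, MVK -0.018 to 0.42, MVD -0.020 to 0.66, FDPS -0.39 to 0.014, GGPS1 -0.44 to 0.15, SQLE -0.49 to 0.23, LSS -0.0020 to 0.39, CYP51A1 -0.14 to 0.10, TM7SF2 -0.35 to 0.16, EBP -0.27 to 0.27, SCAP -0.0043 to 0.16, INSIG1 -0.083 to 0.39, INSIG2 -0.15 to 0.16, STARD4 -0.094 to 0.65. The differences in log2 ratio that turned ran from -0.078 to 0.56 for TM7SF2 over LBR, from -0.072 to 0.58 for INSIG1 over INSIG2, from -0.38 to 0.31 for SREBF2 over SREBF1, and the last was 0.0056 with 0.5 TPM added to both genes. The cause was not tested. Same-numbered libraries of the diets had correlations of their deviations of 0.16, 0.074 and 0.20, against -0.15 to 0.012 for the other pairs. Every library thus correlated best with its own number. Because deviations were taken from the mean of each diet, some pairs must fall below 0 where others lie above it. Whether the numbers mark true pairs was not tested. The main fit did not pair libraries by number, and the labels name no batch. The block gave 1259 rows at an unadjusted p under 0.05, against 973, and 0 past the adjusted threshold in both. DESeq2 called 40 rows, and 5 passed in edgeR without control 2, none a member. STARD4 had the fewest reads of the list, 25 to 74, with an SE of 0.45, beside 0.46 for SQLE at 121 to 475 reads.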

Other observations

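INSIG2 was the 1 gene of the list for which reads and TPM parted. The transcript length implied by reads per TPM varied by 0.43 on the log2 scale between libraries, against 0.00 to 0.07 for the other 28 genes and a 95th percentile of 0.078 over 3827 rows with 1 transcript and at least 100 reads. INSIG2 has 2 transcripts in the tables. Its implied length was lowest in control 2, at -0.27 from its mean, where its TPM was highest, and its log2 fold change was -0.01 on counts and -0.22 in limma on log2(TPM + 0.5). How the reads were divided between its transcripts is not stated in the sources used here.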
